A study of Mus musculus with 2 samples.

Results

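The cells described here are those in which Cd48 and Cd27 messages were both detected and messages of Slamf1, Procr, Clec1b and Mpo were not. They numbered 4916 of 18560 cells in all. The vehicle library held 2213 of them among 8708 cells (25.4%, exact 95% Clopper-Pearson interval 24.5 to 26.3), and the DFO library 2703 among 9852 (27.4%, 26.6 to 28.3). Members were thus chosen by the measured values of these 6 genes, and the levels of those genes are given below as a description only.

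The series asked how iron chelation acts on mouse haematopoietic stem cells (HSC) in culture. Bone marrow of 8 pooled C57/B6 mice aged 6 to 8 weeks was sorted for cells negative for lineage antigens and CD48 and positive for Sca-1, c-Kit and CD150. The sorted cells were grown for 48 h with stem cell factor at 100 ng/ml and thrombopoietin at 50 ng/ml, and received either 10 µM deferoxamine (DFO), an iron chelator, or its vehicle. Both groups share the cytokines, the mice and the sort, and 20000 cells of each were loaded for droplet 3′ RNA sequencing. Each group is 1 culture and 1 library, so no difference below has a test and none has a measure of variation between cultures. Intervals on levels (exact Poisson) and on shares (exact Clopper-Pearson) cover counting error only.

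CD48 is a small surface protein of the SLAM family and the ligand of CD244. In mouse marrow it is used to tell multipotent and more restricted progenitors, which carry it, from the most quiescent stem cells, which do not. CD27 is a receptor of the tumour necrosis factor receptor superfamily that binds CD70 and signals through TRAF adaptors to NF-kB, and it is present on multipotent progenitors with short-lived repopulating activity. Slamf1 encodes CD150 and Procr encodes EPCR, both markers of stem cells. Clec1b encodes CLEC-2, a receptor of megakaryocytes and platelets, and Mpo encodes myeloperoxidase of neutrophil granules. The sort selected against CD48 protein, and the Cd48 messages described here were read after 48 h of culture. Levels before culture were not analysed here.

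The promoters of 5 genes are printed because their genes carry the patterns described below: Cebpa is highest in cells with both messages, Flt3 and Pf4 part along Cd27, Scin parts along Cd48, and Hlf is lower with Cd48 and higher with Cd27. Each sequence is the 250 bases before the annotated start, on the gene's strand, from RefSeq on build GRCm38.p6. The windows are chr7:35119043-35119292 (plus strand) for Cebpa, chr5:147400490-147400739 (minus) for Flt3, chr5:90772185-90772434 (plus) for Pf4, chr12:40134229-40134478 (minus) for Scin and chr11:90390918-90391167 (minus) for Hlf. Capitals mark matches, on either strand, to 4 motifs. The letters searched were AGATAA for GATA factors, GAGGAA for PU.1, TTGCNNAA for C/EBP factors and TGTGGT for RUNX factors.
Cebpa: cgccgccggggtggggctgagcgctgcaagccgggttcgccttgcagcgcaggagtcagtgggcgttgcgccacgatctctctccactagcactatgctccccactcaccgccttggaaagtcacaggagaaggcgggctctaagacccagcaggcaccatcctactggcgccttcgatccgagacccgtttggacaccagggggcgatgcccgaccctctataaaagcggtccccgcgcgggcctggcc
Flt3: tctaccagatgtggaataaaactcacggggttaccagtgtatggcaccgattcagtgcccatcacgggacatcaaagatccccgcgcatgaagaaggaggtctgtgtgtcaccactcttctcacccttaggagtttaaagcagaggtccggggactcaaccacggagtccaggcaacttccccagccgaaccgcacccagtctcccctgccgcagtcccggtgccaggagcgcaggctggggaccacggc
Pf4: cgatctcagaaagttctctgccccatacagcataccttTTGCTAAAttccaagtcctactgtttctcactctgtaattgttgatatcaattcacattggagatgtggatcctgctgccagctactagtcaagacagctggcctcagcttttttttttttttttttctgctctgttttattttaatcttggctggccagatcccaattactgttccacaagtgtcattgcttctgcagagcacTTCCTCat
Scin: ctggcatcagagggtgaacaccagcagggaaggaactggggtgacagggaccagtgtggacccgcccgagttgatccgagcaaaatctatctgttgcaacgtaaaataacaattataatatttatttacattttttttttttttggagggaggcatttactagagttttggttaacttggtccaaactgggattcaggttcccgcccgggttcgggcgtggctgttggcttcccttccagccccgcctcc
Hlf: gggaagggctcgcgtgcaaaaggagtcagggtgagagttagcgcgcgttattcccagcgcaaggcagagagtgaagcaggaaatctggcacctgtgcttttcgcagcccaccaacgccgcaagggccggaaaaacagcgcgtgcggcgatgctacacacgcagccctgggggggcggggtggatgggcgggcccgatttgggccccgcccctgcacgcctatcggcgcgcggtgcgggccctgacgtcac
Of these windows, Pf4 alone held matches, 1 to C/EBP and 1 to PU.1, and these do not overlap. Over all 32851 windows, 9.99% held the GATA letters, 23.3% the PU.1 letters, 9.56% the C/EBP letters and 14.0% the RUNX letters. Over 27025 gene symbols these shares were 11.4%, 25.9%, 10.8% and 15.9%. Of the 12 genes highest in members against other cells (named below), 9 matched a window by symbol, and among these 5 held the PU.1, 4 the RUNX, 2 the C/EBP and 0 the GATA letters. Of the 12 lowest, 10 matched, with 2 holding the GATA, 2 the PU.1, 2 the C/EBP and 1 the RUNX letters. Cd244, Tespa1, Trf and Egr1 had no entry. These matches describe letters only.

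Members held a median of 4 Cd48 molecules in the vehicle library and 3 in the DFO library, and a median of 2 Cd27 molecules in each. Just inside the rule, 23.4% of vehicle and 22.8% of DFO members held exactly 1 Cd48 molecule, and 40.8% and 42.1% exactly 1 Cd27 molecule. Just outside it, 1058 vehicle and 1281 DFO cells failed only on Cd48, and 1179 and 1414 only on Cd27. A further 651 and 756 cells failed only on Slamf1, and 63.1% and 66.7% of those carried a single Slamf1 molecule. Procr alone kept out 234 and 306 cells, Mpo 134 and 133, and Clec1b 27 and 23. A single molecule therefore decided the place of many cells, and the share of members depends on depth. When every cell was thinned at random to 10000 molecules and the rule applied again, over the 8357 vehicle and 9419 DFO cells deep enough, members made up 13.3% of the vehicle library (interval 12.6 to 14.0) and 14.3% of the DFO library (13.6 to 15.0).

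At equal depth, Cd27 was about as frequent in cells with Cd48 as in cells without it. In thinned cells, Cd27 was found in 32.8% of vehicle cells with Cd48 and 34.0% of those without, and in 35.1% and 34.4% in the DFO library. Unthinned, the same shares were 60.3% and 54.0% in vehicle and 63.3% and 56.5% in DFO. The 4 genes required to be at 0 were spread unevenly. Among thinned cells with both messages Slamf1 was found in 6.85% of vehicle cells, against 12.1% of cells lacking either message, and Mpo in 3.35% against 1.41%. The DFO library gave 7.52% against 10.1% for Slamf1 and 2.96% against 1.17% for Mpo. Unthinned, vehicle cells gave 22.7% against 28.9% for Slamf1 and 4.44% against 1.18% for Mpo.

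Members were slightly deeper than the rest, with a median of 28516 against 27519 molecules per cell in vehicle and 28364 against 26556 in DFO. Likely doublets here are cells above a fixed cut on the doublet score or with messages of both sexes. Such cells made up 11.1% of members and 8.84% of other cells in vehicle, and 10.9% and 8.83% in DFO. The cut largely sets how many cells are labelled, so these shares compare groups and do not measure a doublet rate. Thinned to 10000 molecules, members held a median of 3046 genes and other vehicle cells 3058, and in DFO 3069 and 3083. Mitochondrial messages took a median of 4.01% and 3.82% in vehicle and 4.44% and 4.38% in DFO. The libraries shared 24 barcodes, of which 4 fell among vehicle and 2 among DFO members. Xist and Y-linked messages showed that both sexes were among the pooled mice. By these messages 55.2% of vehicle and 53.5% of DFO members were called female, against 54.3% and 53.2% of other cells. Male calls made up 32.4% and 34.3% of members, against 31.5% and 32.7% of other cells. The remaining cells had messages of both sexes or no call. The share of members was 25.7% among female and 25.9% among male vehicle cells, and 27.5% and 28.4% in DFO.

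Against all other cells of the same library, members carried more message of Plac8 and most other multipotent progenitor markers and less of megakaryocyte genes. They also carried more of Cebpa, which is listed below with neutrophil and monocyte genes and not with progenitor markers. Levels are counts of molecules scaled to 1000000 per group of cells (CPM), and differences are log2((CPM + 1)/(CPM + 1)). A log2 difference of 0.5 or more was counted among genes at 10 CPM or more in members or in other cells, so a gene could enter through its higher side alone. In vehicle 40 genes were higher (0.532% of 7525 genes) and 155 lower (2.06%), in DFO 12 higher (0.161% of 7448) and 73 lower (0.98%). In both libraries 12 genes were higher (0.163% of 7384) and 69 lower (0.934%), and 14 of the latter were lower by 1 or more (0.19%). Lower genes outnumbered higher ones in each library. Of the 12 higher genes 4 were under 10 CPM in other cells of at least 1 library, and of the 69 lower genes 20 were under 10 CPM in members of at least 1. Members lack Slamf1, Procr, Clec1b and Mpo by the rule and other cells do not, so a comparison inside cells free of all 4 genes is given further on.

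The 12 genes highest in both libraries were Cebpa, Plac8, Bex6, Clec4e, Igfbp7, Clnk, Cd244, Tespa1, 4930519L02Rik, Cd72, Trf and Scin. Cebpa, Igfbp7 and Trf were under 10 CPM in other cells of both libraries and entered through the members alone. Scin did so in the DFO library. Cebpa, the transcription factor that opens the granulocyte and monocyte programme, stood at 13.5 CPM (12.7 to 14.4) in vehicle members and 6.15 (5.81 to 6.51) in other vehicle cells. In DFO it stood at 10.6 (9.93 to 11.3) and 5.46 (5.14 to 5.79), giving log2 differences of 1.02 and 0.85. Both member levels lie above both levels in other cells. Plac8, abundant in early myeloid progenitors, was read at 548 and 275 CPM in vehicle and 533 and 298 in DFO (0.99 and 0.83). Tespa1, an adaptor of antigen receptor signalling in lymphocytes, was read at 172 and 90.7 CPM in vehicle and 159 and 100.4 in DFO (0.92 and 0.66). Cd244, which encodes the receptor for CD48, was read at 32.7 and 16.6 CPM in vehicle and 29.8 and 17.6 in DFO (0.94 and 0.72). For each of these 4 genes both member levels exceeded both levels outside the set. Igfbp7, a secreted binding protein, differed by 1.15 and 0.78, Bex6 by 1.08 and 0.81, and Clec4e, a C-type lectin receptor of myeloid cells, by 1.00 and 0.79. Scin, which encodes the actin-severing protein scinderin, had the smallest vehicle difference of the 12, 0.56, with 0.71 in DFO.

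Of the 12 lowest, 11 are described: Cavin2, Tesc, Serpine2, Timp3, Pf4, Ehd3, Egr1, Tpm4, Col18a1, Gp5 and Aldh1a1. Cavin2, Tesc, Serpine2, Timp3, Ehd3 and Aldh1a1 were under 10 CPM in members and entered through the other cells. Pf4, the platelet chemokine, was the most abundant, at 529 CPM in vehicle members against 1768 in other vehicle cells and 279 against 719 in DFO (log2 differences of -1.74 and -1.36). Cavin2, a caveola protein found in platelets, was read at 2.92 and 19.3 CPM in vehicle and 2.17 and 11.2 in DFO (-2.37 and -1.94). Gp5, a platelet glycoprotein, differed by -1.46 and -1.05, and Egr1, an immediate early factor, differed by -1.35 and -1.16. Member levels lay below those of other cells in both libraries for all 11, which their choice required. The sign of the difference held for these 11 and for the 12 highest in female cells alone and in male cells alone. Cells of both sexes shared 1 culture and 1 library per group, and the genes were chosen over all of them. This reading by sex is therefore a description and not a replication. In female cells Cebpa differed by 1.01 and 0.88 and in male cells by 1.14 and 0.86, and Pf4 by -1.96 and -1.49 and by -1.53 and -1.33.

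**Figure D1:**
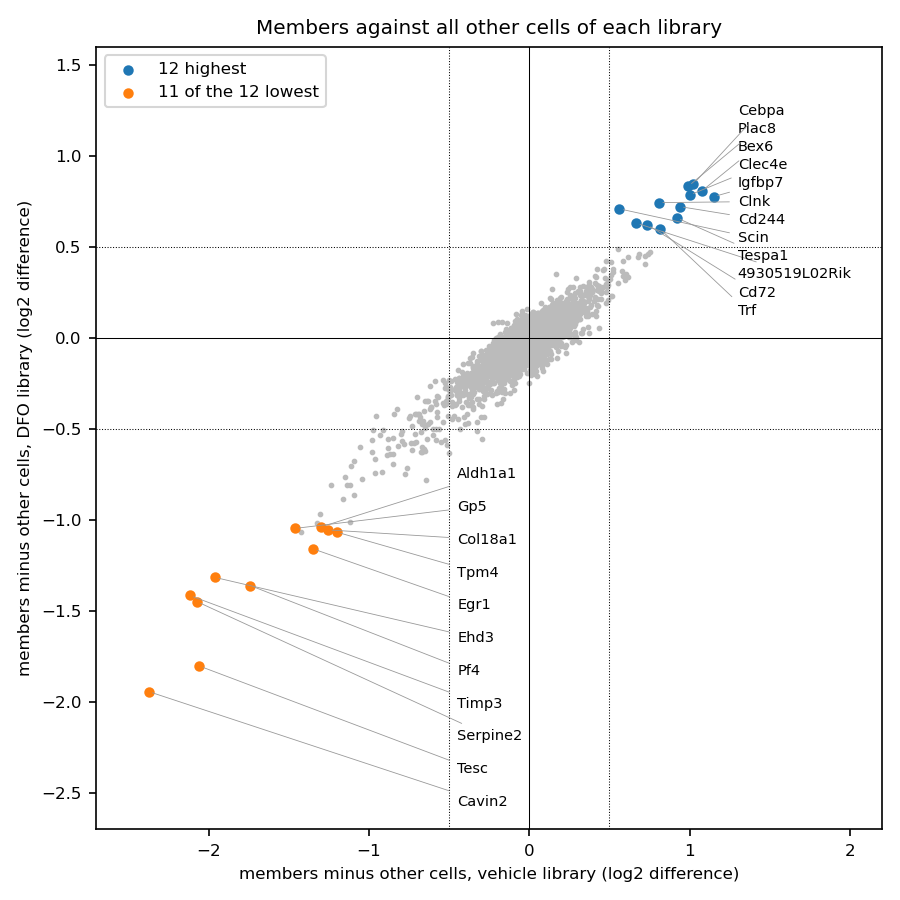
Each point is a gene at 10 CPM or more, with the log2 difference of members minus other cells in the vehicle library on the x axis and in the DFO library on the y axis, the 6 genes of the rule left out. Dotted lines mark 0.5, and the coloured genes are the 12 highest, from 0.56 upward on the x axis, and 11 of the 12 lowest, which reach -2.37 for Cavin2.

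The label of multipotent progenitor was set against marker lists, which were chosen with results of these data known. Of 16 progenitor markers, 13 other than Cd48 and Cd27 reached a mean of 5 CPM. All 13 were higher in vehicle members, with 5 past 0.5, and 12 of 13 were higher in DFO members, with 2 past 0.5. The medians of the list were 0.46 and 0.34, against -0.01 over all genes in each library. Over all genes at 5 CPM or more, 45.7% were higher in vehicle members and 42.2% in DFO members. By 0.5 or more, 0.587% were higher and 2.18% lower in vehicle, and 0.158% and 1.21% in DFO. Plac8 and Tespa1 led in both. Cd34, a sialomucin of progenitors, was read at 206 and 128 CPM in vehicle and 186 and 136 in DFO (0.68 and 0.45). Flt3, the receptor that marks lymphoid-primed multipotent progenitors, was read at 11.8 and 7.48 in vehicle and 10.3 and 8.09 in DFO (0.60 and 0.32). Sox4 differed by 0.60 and 0.34, and Cdk6, whose protein drives exit from quiescence, by 0.04 and 0.10. The progenitor markers were thus mostly higher, by less than 1 log2 unit each.

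Markers of other cell types in members were as follows. The megakaryocyte list was lower throughout: 15 of 15 genes in vehicle and 13 of 13 in DFO, with 15 and 12 past 0.5 and medians of -0.98 and -0.63. Its summed level was 1079 CPM in vehicle members and 2752 in other cells, and 796 and 1463 in DFO. Pf4 made up much of these sums, and the part of free RNA in them was not tested. Of erythroid genes 6 of 7 and 5 of 6 were lower, with Gata1, the erythroid and megakaryocyte master factor, at 10.8 against 28.6 CPM and 8.20 against 17.6. Neutrophil and monocyte genes went both ways, with 3 of 6 and 2 of 5 higher and medians of 0.05 and -0.04. Elane, which encodes neutrophil elastase, was read at 0.148 and 0.195 CPM in members, near 0, whereas Prtn3 was at 182 and 159. Of 18 lymphoid genes 7 are in the tables, and the 2 in vehicle and 3 in DFO that reached 5 CPM differed by less than 0.5. The HSC list was lower in 12 of 15 and 14 of 15 genes, with medians of -0.28 and -0.28. Ly6a, which encodes Sca-1, was read at 54.6 against 94.1 CPM in vehicle and 74.6 against 126 in DFO, while Ifitm1 was higher in members, at 1533 against 1305 and 1606 against 1393. The part of doublets and of depth in these values was not tested beyond the alternatives given at the close.

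**Figure D2:**
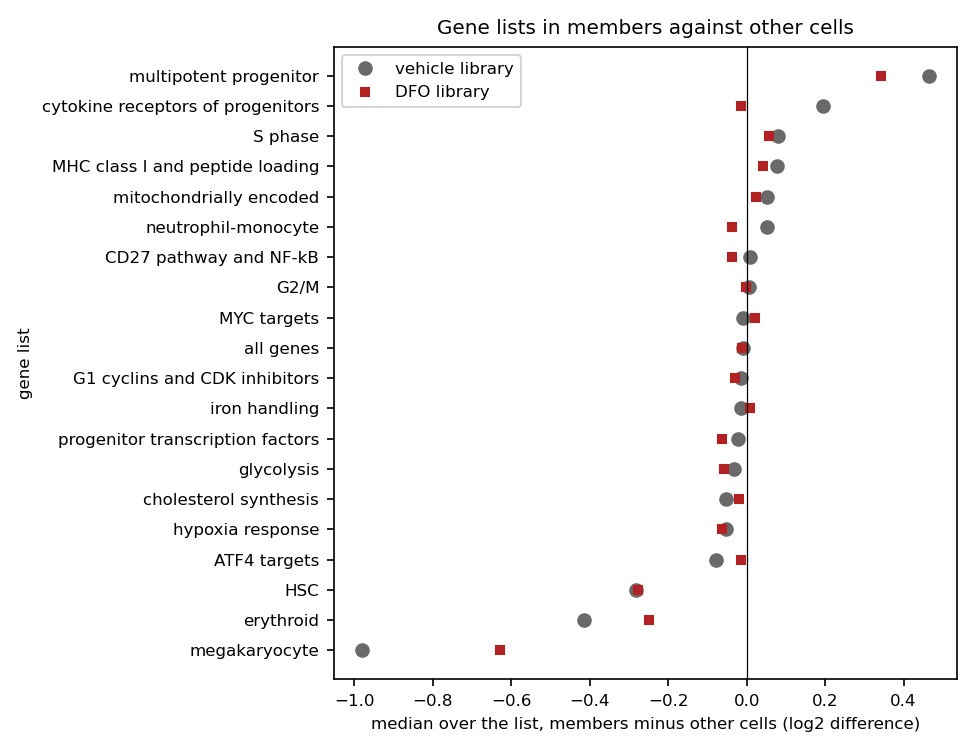
Points give the median log2 difference of members minus other cells over each gene list at 5 CPM or more, circles for vehicle and squares for DFO, for lists with at least 5 genes in both libraries. The multipotent progenitor list lies at 0.46 and 0.34 and the megakaryocyte list at -0.98 and -0.63, with all genes at -0.01.

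In thinned cells the shares of cells followed the levels for Cd34, Plac8, Cebpa, Flt3 and Pf4. At 10000 molecules per cell, Cd34 was found in 81.0% of vehicle members and 60.5% of other vehicle cells, and in 78.4% and 64.4% in DFO. Plac8 was found in 83.9% and 58.0% in vehicle and 81.0% and 59.2% in DFO. Cebpa was found in 11.4% and 5.43% in vehicle and 9.13% and 5.11% in DFO. As a reference, cells with Slamf1 and Procr and no Cd48 numbered 78 and 89, with median depths of 31152 and 25315 molecules. At the thinned depth Cebpa was found in 0 of these 78 vehicle cells and in 1.12% of the DFO cells. For the vehicle cells the exact interval reaches 4.62%, and 3 counts would be 3.85%. Unthinned, 3 of the 78 vehicle cells held it. Plac8 was found when thinned in 30.8% and 42.7%. Unthinned, Cd34 was found in 94.3% of vehicle and 94.2% of DFO members and in 80.0% and 83.1% of other cells. Plac8 was found in 91.8% and 89.5% of members and 72.9% and 72.3% of other cells, and Cebpa in 27.8% and 22.9% against 11.7% and 10.8%. Pf4 was found in 72.3% of vehicle and 60.0% of DFO members when thinned, against 78.1% and 64.0% of other cells. Unthinned, the order for Pf4 was the opposite, at 92.7% of vehicle and 84.5% of DFO members against 90.9% and 80.9% of other cells. Ly6a, lower in members by level, was found unthinned in 49.6% and 59.4% of members against 47.0% and 57.8%, and thinned in 28.5% and 37.0% against 33.7% and 43.5%. Hlf, at 62.7 CPM in vehicle members and 62.9 in other vehicle cells, was found in 40.6% and 35.1% of thinned cells. Shares for Pf4, Ly6a and Hlf thus did not track the levels at every depth. Flt3 was found in 11.6% and 10.2% of members, 7.41% and 8.33% of other cells, and 15.4% and 21.3% of the Slamf1 and Procr cells.

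A finer split held the 4 excluded genes at 0 and divided cells by Cd48 and Cd27 alone. The classes were the members, cells with Cd48 only (1179 vehicle, 1414 DFO), cells with Cd27 only (1058 and 1281) and cells with neither (858 and 1017). Their median depths in vehicle were 28516, 26316, 23663.5 and 20523.5 molecules, and in DFO 28364, 27000.5, 23370 and 20600. The classes therefore also differ in depth, and the same differences are given below with the rule applied at 10000 molecules. In the same order, likely doublets made up 11.1%, 7.55%, 5.20% and 2.80% of the classes in vehicle, and 10.9%, 7.28%, 5.15% and 2.46% in DFO. The split was not run without them, so the part of doublets in these differences was not tested. Against cells with Cd48 only, members had 46 genes higher (0.628% of 7327) and 60 lower (0.819%) in both libraries. Against cells with Cd27 only, they had 16 higher (0.215% of 7439) and 54 lower (0.726%). Both comparisons use the same members.

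Presence of Cd27 went with less megakaryocyte message and with more of most multipotent progenitor markers, and Hlf, Ly6a and Mecom were higher as well. Against cells with Cd48 only, megakaryocyte genes at 5 CPM or more were lower in 14 of 14 in vehicle and 12 of 12 in DFO (medians -0.68 and -0.69). Progenitor markers were higher in 11 of 13 and 10 of 12 (0.62 and 0.57). The HSC list went both ways, with 8 of 14 and 7 of 14 higher (0.07 and 0.02). Over all genes 53.4% and 51.5% were higher. Against cells with Cd48 only, Gata1 stood at 10.8 against 30.5 CPM in vehicle and 8.20 against 20.4 in DFO (-1.42 and -1.22). Pf4 stood at 529 against 1279 and 279 against 648 (-1.27 and -1.21). Flt3 stood at 11.8 against 5.12 and 10.3 against 4.48 (1.07 and 1.05), and Cd34 at 206 against 124 and 186 against 125 (0.73 and 0.58). In each library members lay beyond the cells with Cd48 only in the same direction. Hlf stood at 62.7 against 37.2 and 63.0 against 38.0 (0.74 and 0.72), Ly6a at 54.6 against 39.2 and 74.6 against 49.3 (0.47 and 0.59), and Mecom at 27.2 against 19.4 and 27.8 against 22.0 (0.46 and 0.32). Chosen after their values were seen, as the 6 genes at each end, the highest were Flt3, Ccl9, Cebpa, Ramp1, Igfbp7 and Clec4e, and the lowest Tesc, Gp5, Samd14, Gata1, Pf4 and Alox5. Flt3, Cebpa and Igfbp7 were under 10 CPM in cells with Cd48 only and entered through the members. Tesc, Samd14, Gata1 and Alox5 were under 10 CPM in members of at least 1 library and entered there through cells with Cd48 only. Ccl9, a chemokine of myeloid cells, stood at 40.0 against 19.1 CPM and 33.3 against 15.8 (1.03 and 1.03). With the rule applied to thinned cells Gata1 differed by -1.14 and -1.11, Pf4 by -1.21 and -0.96, Flt3 by 1.01 and 0.79, Cd34 by 0.61 and 0.47, Hlf by 0.66 and 0.49, Ly6a by 0.49 and 0.33 and Mecom by 0.44 and 0.09.

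Presence of Cd48 went with less message of most genes of the HSC list and with more Scin, Nkg7 and Tespa1. Against cells with Cd27 only, genes of the HSC list were lower in 14 of 15 in each library (medians -0.52 and -0.44), with the same count when the rule was applied to thinned cells. Progenitor markers went both ways, with 7 of 13 and 6 of 13 higher (0.09 and -0.01). Megakaryocyte genes were lower in 10 of 12 in vehicle and 5 of 11 in DFO (-0.22 and 0.02). Over all genes 42.6% and 44.2% were higher. Against cells with Cd27 only, Ly6a stood at 54.6 against 153 CPM in vehicle and 74.6 against 190 in DFO (-1.46 and -1.34). Hlf, a transcription factor of stem cells, stood at 62.7 against 112 and 63.0 against 128 (-0.82 and -1.01), and Mecom, a zinc finger factor needed by stem cells, at 27.2 against 45.3 and 27.8 against 45.8 (-0.72 and -0.70). All 3 were lower in members in both libraries. Flt3 was not higher here: it stood at 11.8 against 14.3 and 10.3 against 14.7 (-0.25 and -0.47), and Cd34 differed by 0.09 and -0.07. Among the 6 genes at each end, chosen as above, the highest were Scin, Nkg7, Cd52, Tespa1, 4930519L02Rik and Slc22a3 and the lowest Sult1a1, Ly6a, Pdcd1, Plscr2, Pnp2 and Lmo1. Here Scin was under 10 CPM in cells with Cd27 only and entered through the members. Sult1a1, Pdcd1, Pnp2 and Lmo1 were under 10 CPM in members of at least 1 library and entered there through cells with Cd27 only. Scin stood at 20.7 against 8.73 and 14.7 against 5.18 (1.16 and 1.35), and Nkg7, a granule protein of cytotoxic cells, at 109 against 51.7 and 78.2 against 35.7 (1.05 and 1.11). Pf4 differed by -0.21 and 0.04. With the rule on thinned cells Ly6a differed by -1.43 and -1.16, Hlf by -0.73 and -0.81, Mecom by -0.56 and -0.65 and Scin by 0.82 and 1.05.

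Members thus held Pf4 and Gata1 near the level of cells with Cd27 only, whereas their Ly6a, Hlf and Mecom lay between the lower level of cells with Cd48 only and the higher level of cells with Cd27 only. Members also had the largest share of likely doublets of the classes in this split, and its part in these levels was not tested. Cebpa and Plac8 were highest where both messages were present. In vehicle Cebpa stood at 13.5 CPM in members, 6.33 with Cd48 only, 6.91 with Cd27 only and 4.14 with neither, and in DFO at 10.6, 5.02, 6.31 and 3.55. Plac8 stood at 548, 371, 339 and 223 in vehicle and at 533, 348, 352 and 201 in DFO. The classes with a single message did not keep 1 order between libraries for Plac8, and their Cebpa intervals in vehicle overlap (5.49 to 7.26 and 5.95 to 7.99). Cells with both messages and 1 or more of the 4 excluded genes (1169 and 1312) held more Pf4 than members, at 1334 and 527 CPM, and less Cebpa, at 11.0 and 8.62. Those cells were deeper, with medians of 34225 and 33857 molecules, and 19.7% and 22.6% of them were likely doublets, so their difference from members cannot be told apart from depth and doublets.

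**Figure D3:**
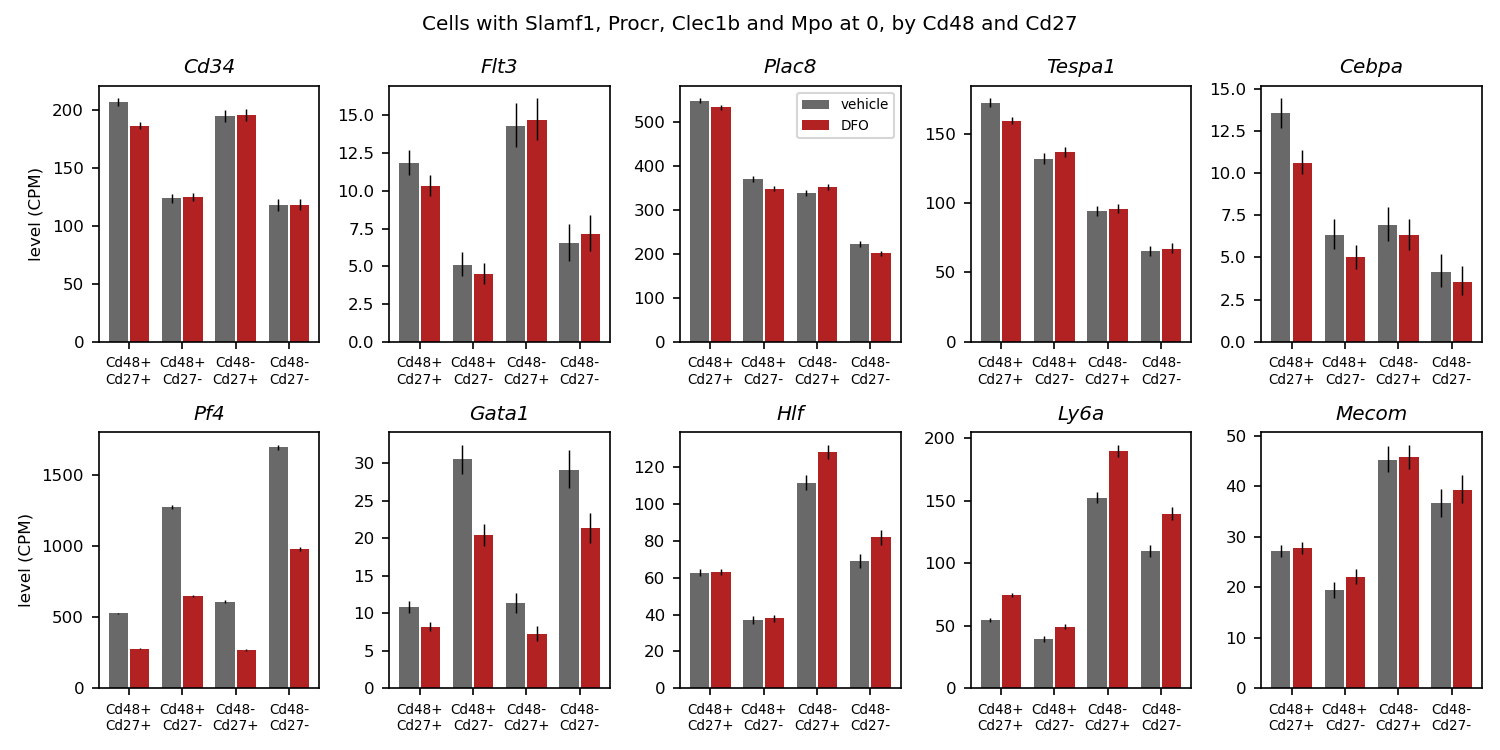
Bars give the level in CPM (y axis from 0) of 10 genes in cells with Slamf1, Procr, Clec1b and Mpo at 0, split by detection (+) or absence (-) of Cd48 and Cd27, grey for vehicle and red for DFO, with exact 95% Poisson intervals for counting error. Pf4 and Gata1 are low in both classes with Cd27, members lie between the Cd48+ Cd27- and Cd48- Cd27+ classes for Ly6a, Hlf and Mecom, and Cebpa, Plac8 and Tespa1 are highest in members.

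Partners of the 2 defining proteins were looked at next. Of the SLAM family and its adaptors 9 of 14 genes are in the tables, and beyond Cd48 and Slamf1 only Cd244 and Cd84 reached 5 CPM. Cd84, a self-binding SLAM receptor, was at 18.8 against 23.3 CPM in vehicle and 17.8 against 20.5 in DFO (-0.29 and -0.19), while Ly9 and Slamf6 stayed under 1 CPM. Of the CD27 pathway and NF-kB genes 24 of 25 are in the tables and 16 and 15 passed 5 CPM. None differed by 0.5 or more, 9 and 7 were higher, and the medians were 0.01 and -0.04. Over all genes at 5 CPM or more, 45.7% and 42.2% were higher. Past 0.5 were 0.587% up and 2.18% down in vehicle, and 0.158% and 1.21% in DFO. Siva1, which encodes a protein bound by the CD27 tail, was at 415 against 392 CPM and 429 against 417, Traf2 at 14.3 against 14.1 and 14.0 against 13.7, and Nfkb1 at 99.1 against 119 and 104 against 116. Members thus held more Cd244 message. The absence of listed CD27 signalling genes past the counted size is near the share over all genes and sets these genes apart in no way. Among cytokine receptors, Kit, the stem cell factor receptor, was at 42.5 against 32.8 and 43.4 against 39.7 (0.36 and 0.13). Of 28 progenitor transcription factors at 5 CPM or more, 2 were higher and 4 lower by 0.5 in vehicle, and 1 higher and 3 lower in DFO, against 0.587% higher and 2.18% lower over all genes in vehicle and 0.158% and 1.21% in DFO. Cebpa led that list in both and Gata1 was among its lowest, and Spi1, which encodes PU.1, differed by 0.23 and 0.07.

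Cell cycle genes were near equal. S phase genes were higher in 35 of 42 in vehicle and 36 of 42 in DFO, with medians of 0.08 and 0.06 and none past 0.5, where 45.7% and 42.2% of all genes were higher, and G2/M genes had medians of 0.01 and -0.00. Mki67, a proliferation marker, was found in 77.2% of thinned vehicle members and 77.8% of DFO members, against 76.4% and 77.0% of other cells, and unthinned in 90.1% and 91.4%. Phase scores on thinned cells called 5.63% of vehicle members G1 (4.71 to 6.68) against 8.38% of other cells, and 2.56% of DFO members (2.00 to 3.23) against 5.53%. S was called in 34.0% and 31.9% in vehicle and 36.3% and 33.9% in DFO. Unthinned, G1 was called in 8.36% and 12.8% in vehicle and 4.18% and 9.12% in DFO. Fewer G1 calls were made in members than in other cells, and in DFO than in vehicle, by either reading.

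Inside the members DFO went with small differences. At 10 CPM or more, 2 genes were higher by log2 0.5 (0.0269% of 7431) and 11 lower (0.148%), and none differed by 1. In all other cells the same count was 1 higher (0.0133% of 7507) and 56 lower (0.746%). The 2 higher genes were mt-Nd3, a mitochondrially encoded subunit of complex I, at 736 CPM in vehicle and 1073 in DFO members (0.54), and Rpa3, of the single-strand DNA binding complex, at 51.0 and 73.1 (0.51). Other cells gave 0.55 and 0.46 for these. Next came Hist1h2ap, Usp50, Cish, Shisa8, Id1, Snhg6, Ly6a and Gm10076, between 0.50 and 0.43. Cish, a target and inhibitor of STAT5 signalling, went from 30.5 to 42.5 CPM (0.46, against 0.25 in other cells), and Ly6a from 54.6 to 74.6 (0.44, against 0.42).

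The lowest gene was Pf4, at 529 CPM (523 to 534) in vehicle and 279 (276 to 283) in DFO members, a log2 difference of -0.92, and at 1768 and 719 in other cells (-1.30). Pf4 was lower in DFO in each class of the split by Cd48 and Cd27, from 1279 to 648 CPM with Cd48 only, from 611 to 272 with Cd27 only and from 1698 to 983 with neither. After it came Aldoc, Tyrobp, Gp9, Alox5, Pdcd4, Tnfaip8l2, Cd180, Col18a1 and Itgal, and Tpm4 was the eleventh, at -0.50. Aldoc, a glycolytic aldolase, went from 13.0 to 7.80 CPM (-0.67, against -0.60 in other cells). Tyrobp, the DAP12 signalling adaptor of myeloid cells, went from 23.2 to 14.5 (-0.64, against -0.32), and Gp9, a platelet glycoprotein, from 20.9 to 13.1 (-0.64, against -0.86). All 10 were also lower outside the set, from -0.32 for Tyrobp to -1.30 for Pf4. The sign held in female and in male members for all 20 genes named here: Tyrobp differed by -0.66 and -0.56 and mt-Nd3 by 0.51 and 0.56. These genes were chosen over members of both sexes, so the reading by sex is again a description only. Whether members differ from other cells in their response was not tested.

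**Figure D4:**
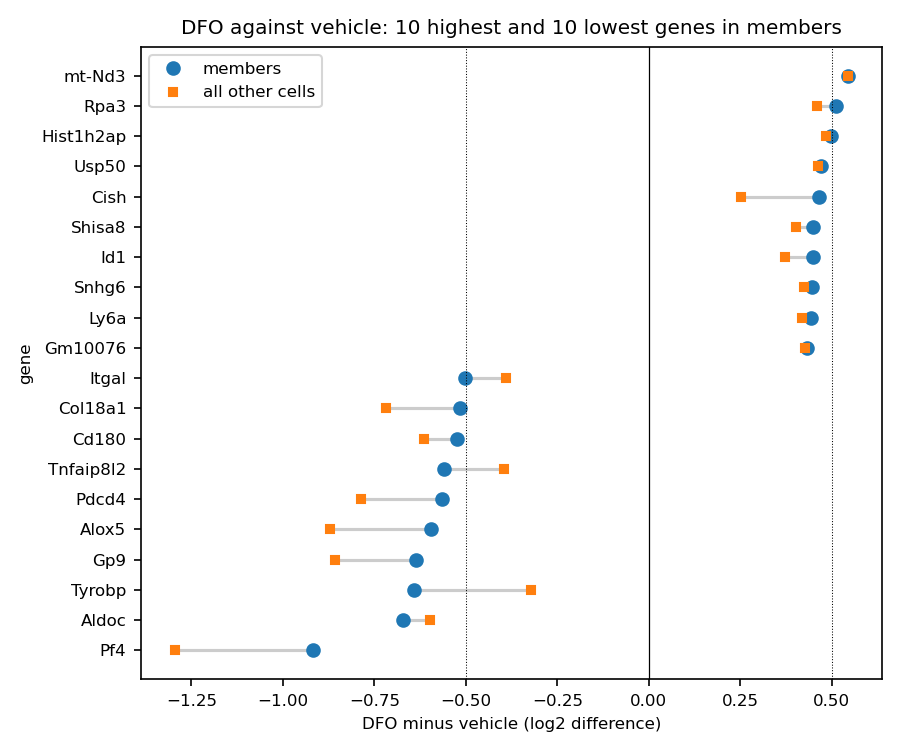
For the 10 highest and 10 lowest genes in members, the x axis gives DFO minus vehicle as a log2 difference in members (circles) and in all other cells (squares), and dotted lines mark 0.5. The 10 highest lie between 0.43 and 0.54 in members, and Pf4 lies at -0.92 in members and -1.30 in other cells.

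Over all genes at 5 CPM or more, 55.3% were higher under DFO in members and 58.9% in other cells. By 0.5 or more, 0.0341% were higher and 0.171% lower in members, and 0.0112% and 0.731% in other cells. By list, megakaryocyte genes in members had a median DFO difference of -0.17 with 3 of 12 lower by 0.5, against -0.61 and 9 of 15 in other cells. Their summed level in vehicle was higher in other cells, and more of them reached 5 CPM there. The part of either in this contrast was not tested. Multipotent progenitor genes, Cd48 and Cd27 left out, were lower in 12 of 13 with a median of -0.11, none past 0.5, against 0.10 in other cells, and all genes had medians of 0.01 and 0.02. Cd52, a lymphocyte surface antigen, was the lowest of that list, at -0.47. Neutrophil and monocyte genes were lower in 6 of 6 (median -0.26, 1 past 0.5, against -0.20 in other cells). MYC target genes were higher in 25 of 28 (0.15, against 0.11 in other cells), mitochondrially encoded genes in 10 of 13 (0.15, against 0.14) and ATF4 targets in 10 of 13 (0.14, against 0.11). Glycolysis genes were lower in 15 of 17 (-0.11, against -0.15), cholesterol synthesis genes in 19 of 21 (-0.12, against -0.16) and hypoxia response genes in 14 of 19 (-0.12, against -0.12), and of these only Aldoc passed 0.5. The medians of members and other cells lay close together except for the megakaryocyte and progenitor lists. Of 15 iron handling genes 7 were higher and 8 lower with none past 0.5. Tfrc, the transferrin receptor whose message is stabilised when iron is scarce, was the highest of these, at 54.4 CPM (52.6 to 56.2) in vehicle and 69.6 (67.8 to 71.4) in DFO members, a log2 difference of 0.35, against 58.9 and 66.9 in other cells (0.18). It was found in 36.3% of thinned vehicle members and 45.3% of thinned DFO members (unthinned, 64.9% and 74.6%). Hmox1, haem oxygenase, was the lowest, at 5.93 and 4.90 CPM (-0.23). Cd48 stood at 163 and 167 CPM and Cd27 at 75.9 and 73.2 in vehicle and DFO members.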

How the data were processed

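Values in both deposited tables are the authors' natural log values, ln(1 + 27408 × molecules / total), per the values themselves; the submitters' processing notes name FastQC 0.11.9, Trim Galore 0.6.5, Cell Ranger 3.0.2 and mm10, with cell filtering not given in the sources used here. Back-transformed, 100% of nonzero values were whole molecules within 0.05, for 260938938 vehicle and 284326017 DFO molecules over 14366 genes. Work was done with scanpy 1.11.5, pandas 2.3.3, scipy 1.17.1, numpy 2.4.6 and matplotlib 3.10.9 under Python 3.11.15. Molecules were summed over cells and scaled to CPM, with a pseudocount of 1 CPM. Groups of 1 library allow no count model. The sums and thinning were tested on simulated data. Scrublet called 3 and 2 cells as doublets (0.0345% and 0.0203%), too few to have worked, so no cell was removed. As an alternative, the top 8% of scores and cells with messages of both sexes (820 and 925 cells) were left out. These are the cells named likely doublets above, and the cut on scores was set beforehand and not estimated. Named are the 12 highest and 12 lowest genes against other cells, the 10 highest and 10 lowest under DFO, 32 fixed genes, and the extremes of lists; a few of these are not reported here. Members and all 25 lists were chosen with earlier results of these data known.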

Additional observations from a re-analysis of the deposited data

Results flagged for a closer look

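DFO minus vehicle had one sign in members and the other in all other cells for 13 of the 69 named genes. The same share over all genes was not counted, and many named genes were picked by their differences in these data. The count therefore describes the named genes only and shows no trait particular to members. For 5 of the 13 the exact Poisson intervals of the vehicle and DFO levels also did not overlap, in members and in other cells alike. These are Plac8 (-0.040 in members and 0.12 in other cells, on the log2 scale), Igfbp7 (-0.20 and 0.18), Tespa1 (-0.11 and 0.15), Cd34 (-0.15 and 0.09) and Spi1 (-0.13 and 0.04). With 1 library per group the difference was not tested. The sign in members held under every alternative run for Igfbp7, Tespa1, Cd34 and Spi1, and turned for Plac8. The sign in other cells under these alternatives is not given here. For Spi1 in other cells the interval ended at 106.77 CPM in vehicle and began at 106.80 CPM in DFO. Plac8, Tespa1 and Cd34 are markers of the multipotent progenitor list, and Spi1 and Igfbp7 were also higher in members than in other cells of each library.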

How the results depend on the processing

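No difference counted in the text reversed, but the counts depend on settings. The 12 genes higher in both libraries became 7 with a pseudocount of 10 CPM, 20 when 2 or more molecules of Cd48 and of Cd27 were required and 7 at a minimum of 20 CPM. The 69 lower became 30 at a pseudocount of 10 CPM, 112 at a minimum of 5 CPM and 44 at 20 CPM. Inside members, the 2 genes higher under DFO became 1 (pseudocount 10 CPM), 4 (mean of CPM per cell), 1 (median ratio scaling), 4 (rule on thinned cells), 4 (minimum 5 CPM) and 5 (male cells), and the 11 lower became 2 (pseudocount 10 CPM), 17 (cells thinned), 19 (minimum 5 CPM) and 4 (minimum 20 CPM). The share of members in vehicle and DFO became 13.3% and 14.3% at 10000 molecules, 5.36% and 5.88% at 5000, 11.6% and 12.5% with 2 or more molecules of each, 27.0% and 28.8% without the condition on Mpo and 38.8% and 40.8% without any condition on genes at 0. Without the condition on Slamf1, chosen after seeing the data along with leaving out Clec1b or the shared barcodes, it became 32.9% and 35.1%, and in male DFO cells 28.4%. Unthinned phase calls gave G1 8.36% and S 31.7% in vehicle and G1 4.18% in DFO. At a minimum of 20 CPM the erythroid medians became -0.13 and -0.21 and the cytokine receptor median in vehicle -0.12. Directions turned under some setting for Hlf, Traf2, Elane, Mki67, Cdk6, Satb1 and Ly9 against other cells, and inside members for Plac8, Serpine2, Timp3, Ehd3, Egr1, Flt3, Kit, Hlf, Mecom, Elane, Irf8, Satb1, Traf2 and Traf5. The cause was not tested. No paired analysis was possible because each group is 1 library.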

Other observations

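Cpa3, a mast cell and basophil protease, was the gene of its list at 5 CPM or more in vehicle members, at 6.74 CPM against 3.48 in other vehicle cells. In DFO it stood at 2.72 and 2.29 CPM. At 10000 molecules per cell it was found in 6.54% of vehicle members and 3.02% of other vehicle cells, and in 2.38% and 2.10% in DFO. Csf3r, the receptor of granulocyte colony-stimulating factor, stood at 4.59 against 2.52 CPM in vehicle and 5.06 against 3.57 in DFO. The 17 vehicle and 19 DFO cells with Mpo and Elane and no Clec1b, which the rule keeps out, held the highest Plac8 of any group compared, at 1877 and 1736 CPM, and Cebpa at 104 and 59.8 CPM.

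MHC class I and peptide loading genes were higher in members in 13 of 15 in vehicle and 13 of 16 in DFO, with medians of 0.08 and 0.04 and none past 0.5. Over all genes at 5 CPM or more, 45.7% and 42.2% were higher, and 0.587% and 0.158% were higher by 0.5. Fth1, the ferritin heavy chain, stood at 3507 against 3175 CPM in vehicle and 3418 against 3176 in DFO, and Ftl1, the light chain, at 2270 against 2701 and 2410 against 2712. The heavy chain was thus higher and the light chain lower in members than in other cells of both libraries.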
